A study of Mus musculus with 9 samples.

Results

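The Lamp5, Slc6a5 and Hoxb2 cells were 98 of the 1460 wells of the VGAT plates that passed the quality limits. They were chosen by their counts: the summed counts of Lamp5, Slc6a5 and Hoxb2 in the well reached 4. They are called members here. In all, 2035 of 3455 wells on 9 plates passed the limits (at least 2000 genes, at most 50000 counts and under 15% mitochondrial counts), and the comparison was with the other 1362 kept wells of the VGAT plates. The main tests of genes used those on the 6 plates with at least 5 members. The rule used the measured counts of these 3 genes, so their levels in members are a description, with no test.

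Ventral midbrain tissue was taken from mice of the genotype VGAT-Cre:Ai14:Pitx3-GFP, in which tdTomato stays on in each cell that has ever expressed VGAT (the vesicular GABA transporter gene Slc32a1) and GFP marks cells that express Pitx3. All plates shared this genotype. FACS filled 4 plates with tdTomato cells of E16 embryos (VGAT E16) and 3 with tdTomato cells of P0 pups (VGAT P0), and 1 plate per stage received cells with both proteins (VGAT+PITX3). The tissue was cut by hand from brain slices. The paper names several brains and litters per stage but does not say how they were spread over the plates. The labels tie no animal to a plate, so a plate is taken as the replicate and p-values measure the spread between plates. RNA was read with CEL-seq2, which tags the mRNA of a sorted cell with the barcode of its well and each molecule with a random one, and values are corrected counts of molecules. Each well name carries 2 plate labels, and for 4 of the 7 VGAT plates they give different stages. The first, which follows the sample titles, was used for the stage. Sox11, a gene of young neurons looked at after the labels were found to differ, was between 1100 and 1683 CPM (counts per 1e+06 counts) over all kept wells of the VGAT E16 plates and between 578 and 717 CPM on the VGAT P0 plates. Igf2bp2 and Igf2bp3, also looked at then, were at 25.3 to 37.5 and 20.025 to 29.99 CPM on the VGAT E16 plates and at 8.36 to 18.8 and 3.59 to 11.1 CPM on the VGAT P0 plates.

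Lamp5 encodes a lysosome-associated membrane protein of inhibitory neurons that sits on synaptic vesicles. Slc6a5 encodes GlyT2, the transporter that takes glycine up into glycinergic nerve endings, and neurons that express it lie mainly in the hindbrain and spinal cord. Hoxb2 belongs to the Hox clusters, whose genes are active behind the border of midbrain and hindbrain, with higher paralog numbers reaching less far forward, and Hox proteins bind DNA together with Pbx and Meis partners. Otx2, by contrast, marks the forebrain and midbrain in front of that border.

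In mouse build GRCm38, Lamp5 (ENSMUSG00000027270) lies at chr2:136052239-136069917, Slc6a5 (ENSMUSG00000039728) at chr7:49910146-49963856 and Hoxb2 (ENSMUSG00000075588) at chr11:96350525-96354012, all on the plus strand. The antisense gene Hoxb3os overlaps Hoxb2, and since the sources used here do not say that counting kept strands apart, reads of these 2 genes may not have been told apart. The promoters of Lamp5 and Slc6a5, which carry the rule, and of Meis2, the Hox partner gene with the lowest adjusted p among the genes that rose, are shown from 250 bases before to 50 after the RefSeq start site (RefSeq, GRCm38.p6, 5′ to 3′ on the gene's strand). Capitals mark matches of TGATNNAT, a joint motif of Pbx and Hox proteins, on either strand. The Meis motif TGACAG was also searched on both strands. The 2 motifs do not overlap one another.
Lamp5 (chr2:136052089-136052388, plus strand): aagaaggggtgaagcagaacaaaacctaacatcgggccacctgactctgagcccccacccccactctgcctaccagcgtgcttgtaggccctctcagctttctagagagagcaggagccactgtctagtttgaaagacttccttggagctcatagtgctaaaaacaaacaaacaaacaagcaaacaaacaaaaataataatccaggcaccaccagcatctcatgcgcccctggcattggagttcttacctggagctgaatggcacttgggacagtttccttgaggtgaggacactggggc
Slc6a5 (chr7:49910049-49910348, plus strand): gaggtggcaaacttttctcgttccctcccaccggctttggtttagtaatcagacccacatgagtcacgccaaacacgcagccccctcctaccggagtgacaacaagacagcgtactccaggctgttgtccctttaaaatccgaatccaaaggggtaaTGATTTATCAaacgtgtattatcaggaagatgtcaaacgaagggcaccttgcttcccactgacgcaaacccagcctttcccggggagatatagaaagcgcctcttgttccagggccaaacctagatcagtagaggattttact
Meis2 (chr2:116064570-116064869, minus strand): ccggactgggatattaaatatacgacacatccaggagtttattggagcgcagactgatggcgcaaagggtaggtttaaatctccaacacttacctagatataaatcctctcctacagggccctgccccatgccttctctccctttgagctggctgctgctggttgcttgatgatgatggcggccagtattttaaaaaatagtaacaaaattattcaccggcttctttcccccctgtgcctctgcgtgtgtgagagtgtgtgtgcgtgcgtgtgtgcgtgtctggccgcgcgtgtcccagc
The Slc6a5 window held 2 overlapping matches of TGATNNAT, 1 on each strand, and the windows of Lamp5 and Meis2 held none. Of the 27025 genes with a promoter in the same table, 9.04% had a match of TGATNNAT and 19.3% one of TGACAG, which was in none of the 3 windows shown. A match describes the letters only.

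Lamp5 carried the rule. All 98 members had Lamp5, with 2 to 32 counts per well and a median of 9, and 90 members reached the threshold with Lamp5 alone. Slc6a5 was found in 55 members (56.1%), with up to 24 counts, and Hoxb2 in 29 (29.6%), with up to 4 counts. Hence 21 members had all 3 genes, 34 had Lamp5 and Slc6a5, 8 had Lamp5 and Hoxb2, and 35 had Lamp5 alone. Slc6a5 and Hoxb2 were seldom found outside the members: 55 of the 68 VGAT wells with Slc6a5 and 29 of the 31 with Hoxb2 were members, and no kept VGAT well with at least 3 counts of these 2 genes lacked Lamp5. Among the other wells Lamp5 was found in 9.99%, with at most 3 counts, Slc6a5 in 0.954% and Hoxb2 in 0.147%. The rule itself holds other wells to at most 3 summed counts of these genes. Their scarcity outside the members is thus set in part by the rule and is a description only.

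Wells just under and just over the threshold are described without a test. The 13 wells with 3 summed counts had Mab21l1 at 42.7 CPM in 4 wells and Calb1 at 21.4 CPM in 2 wells. The 8 wells with 4 summed counts had Mab21l1 at 21.2 CPM in 2 wells and no Calb1, whereas the 6 wells with 5 counts had Mab21l1 at 198 CPM in 5 wells and Calb1 at 1025 CPM in 2 wells. Meis2 was already high below the threshold, at 401 CPM in wells with 0 summed counts, 1120 CPM with 1, 2122 CPM with 2 and 2261 CPM with 3, against 2447 CPM with 4.

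Members were on all 7 VGAT plates, in unequal shares. On the VGAT E16 plates they were 20 of 190, 16 of 228, 12 of 303 and 7 of 305 kept wells for replicates 1 to 4, or 10.5% (95% exact binomial interval 6.55 to 15.8), 7.02% (4.06 to 11.1), 3.96% (2.06 to 6.82) and 2.30% (0.928 to 4.67). On the VGAT P0 plates they were 7 of 44, 4 of 219 and 32 of 171 wells for replicates 1 to 3, or 15.9% (6.64 to 30.1), 1.83% (0.500 to 4.61) and 18.7% (13.2 to 25.4). These intervals cover counting error only. The mean was 12.1% ± 9.05 (SD, n = 3) at P0 and 5.95% ± 3.62 (SD, n = 4) at E16, a difference that the spread between plates did not resolve (p = 0.286, two-sided exact permutation test over 7 plates, smallest possible p 0.0571). By the stage in the second plate label the 4 plates that read E16 had between 7.02% and 18.7% of members and the 3 that read P0 had between 1.83% and 3.96%, which did not overlap and was not tested. The VGAT+PITX3 plates had 0 of 304 members at E16 and 0 of 271 at P0, which allows a share of up to 0.987% and 1.11% when 3 wells are taken as the limit, and of up to 1.21% and 1.35% by the exact binomial interval. On these 2 plates Lamp5 was found in 2.43% of wells, with median depths of 13855 and 7462 counts per well, Slc6a5 in 1 well and Hoxb2 in none.

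**Figure D1:**
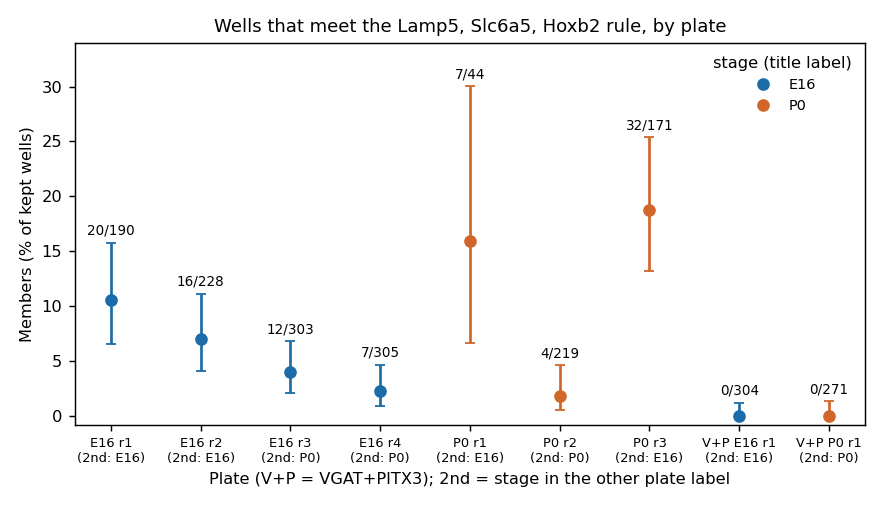
Members as a percent of kept wells on each plate (points) with 95% exact binomial intervals (bars), coloured by the stage of the sample title, with the stage of the second plate label under each plate name and the numbers of wells above the bars. Shares run from 1.83% to 18.7% on the VGAT plates and are 0 on both VGAT+PITX3 plates.

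The members were sequenced about as deeply as their neighbours on most plates. Median counts per member were 20033, 23706, 21001 and 26143 on the VGAT E16 plates and 34892, 8443 and 17974 on the VGAT P0 plates. The other wells of the same plates had 20388, 22481, 16647, 15520, 32192, 7006 and 18377 counts, so that members were deeper on VGAT E16 replicates 3 and 4. Of the members, 3 had more than 2 times the median depth of their plate. Thinned to 4000 counts, 74.5% of members and 3.74% of other wells still had Lamp5. No doublet caller was run. All 9 plates use 1 set of well barcodes, and 383 well positions occur on every plate, so a shared barcode identifies no cell here. Of the 89 positions of members, 9 were used by members of more than 1 plate.

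The name hindbrain-like inhibitory neurons was checked against the genes. The inhibitory part held for most members: the GABA synthesis enzyme Gad1 was found in 97 of 98 members, Gad2 in 94 and Slc32a1 in 91. The glutamate transporter genes Slc17a6 and Slc17a8 were found in 6 and 11 members (6.12% and 11.2%) and in 2.28% and 4.26% of other wells. The hindbrain part was not settled by these genes. A count of any Hox gene was found in 45 members, but this includes Hoxb2, which the rule used. Other Hox genes were found in 30 members. In 53 members no Hox gene was found, but Hox counts were low (Hoxb2 at most 4 per well), so this does not show absence. Through Lamp5 alone 35 members were chosen. Gata3 and Tal1 were found together in 77 members, but they specify inhibitory neurons in both the midbrain and the front hindbrain. The cells are therefore called by their rule here and not by a region.

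Hox genes other than Hoxb2, which the rule did not use, were found in 30 of 98 members (30.6%) and in 35 of 1362 other wells (2.57%). After thinning to 4000 counts the shares were 17.3% and 0.687%. On single plates the shares in members were 40%, 25%, 58.3% and 0% on VGAT E16 replicates 1 to 4 and 0%, 0% and 34.4% on VGAT P0 replicates 1 to 3, while the other wells of each plate had between 0.719% and 5.41%. Hoxb3 was found in 22 members and Hoxa2 in 14, both front members of their clusters that are active in the hindbrain, against 0.514% and 0.441% of other wells. Members with Hoxb2 had another Hox gene in 14 of 29 wells and members without it in 16 of 69. No Hox gene passed the filter on low counts, so none was tested.

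A set of 7 members stood apart by Hox genes of paralog group 6 and higher. All 7 were on VGAT E16 replicate 3, where members were 12, and no member of another plate had such a gene. Each of the 7 wells had Hoxb3, Hoxd3, Hoxb6 and Hoxb8, 6 had Hoxb7, 5 had Hoxa5 and 6 had Hoxb2. Their summed counts of Hox genes of group 6 and higher were between 13 and 38 per well, whereas the 5 other wells of this plate with such a gene had 1 count each. Hoxb8 had 2 to 20 counts and Hoxb6 2 to 14 counts in the 7 wells, whose depth was between 12439 and 26040 counts. In the textbook order of the clusters, genes of groups 6 to 8 are active in the spinal cord and not in the midbrain. All 7 wells had Slc6a5 (1 to 24 counts, median 3), 6 had Pax2 and 5 had Pax8, factors of dorsal inhibitory neurons in hindbrain and spinal cord, and all 7 had the neuropeptide gene Npy (1 to 81 counts). Gad1 was found in 7 of them and Slc32a1 in 5. Genes common in other members were few here: Meis1 and En1 were found in none, Gata3 in 3 with at most 1 count, Tal1 in 1, and Meis2 in 4 with at most 9 counts. Npy, En1 and Meis1 did not set the 7 wells apart on their own plate. Of its 12 members all 12 had Npy, 0 had En1 and 1 had Meis1. The set was noticed in these data and was not tested.

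**Figure D2:**
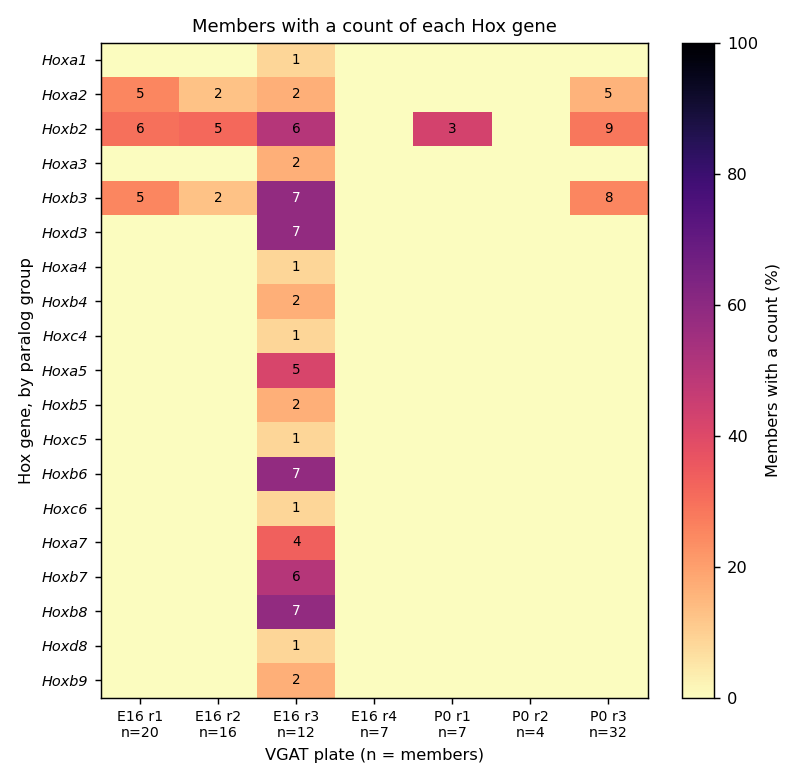
Hox genes found in at least 1 member (rows, in order of paralog group) by VGAT plate (columns). Numbers are members with a count and the colour is their percent of the plate's members. Group 1 to 3 genes occur on 5 plates and genes of group 4 and higher in members of VGAT E16 replicate 3 only.

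The members were then compared with the other wells in every gene but the 3 of the rule. On the 6 plates with at least 5 members, sums of counts per class entered edgeR's quasi-likelihood test, blocked by plate. Of 9839 genes tested, 92 passed the threshold of an adjusted p of 0.05 (0.935%), 32 higher in members (0.325%) and 60 lower (0.61%), and the median log2 fold change of all genes was 0.01. Without VGAT E16 replicate 2 the count was 53 and without VGAT E16 replicate 3 it was 147. On VGAT P0 replicate 2, whose 4 members were not in the fit, 19 of the 32 higher genes were higher and 51 of the 60 lower genes were lower. Levels are CPM of the summed counts after TMM scaling, given as mean ± SD over the 6 plates, and fold changes are edgeR's.

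Both markers given with this cell class passed, but were not higher in members on every plate. They were named with results of these data known, so their passing is a description and no independent support for the class. Calb1 (calbindin, a calcium buffer of many inhibitory neurons, chr4:15881264-15908064) was at 343 and 656 CPM in members of VGAT E16 replicates 1 and 2 and at 692 and 1311 CPM in those of VGAT P0 replicates 1 and 3. In the other wells of these plates it was at 13.1, 22.1, 30.5 and 36.6 CPM. In members of VGAT E16 replicate 3 it was at 7.3 CPM against 8.8 CPM, and VGAT E16 replicate 4 had 0 counts in members, where 3 counts are 17.4 CPM, against 4.7 CPM. Members were thus far above the other wells on 4 plates, and on VGAT E16 replicates 3 and 4 a difference was not detectable at this depth. Over the 6 plates the log2 fold change was 4.27 (SE 0.49, adjusted p = 0.00112). The gene was uneven within plates too: 46 members had Calb1, 21 of them with at least 20 counts, and the most was 162. Mab21l1 (a gene of the Mab21 family that acts in neural and eye development, chr3:55782510-55785001, inside Nbea on the other strand) was at 160, 224, 7.3 and 0 CPM in members of VGAT E16 replicates 1 to 4 and at 162 and 331 CPM in members of VGAT P0 replicates 1 and 3. The other wells were at 21.0, 18.5, 4.6, 3.5, 12.3 and 68.9 CPM. It was found in 65 members (66.3%), and its log2 fold change was 2.80 (SE 0.30, adjusted p = 6.17e-04). Of the 46 members with Calb1, 43 had Mab21l1, and 22 members had Mab21l1 without Calb1. Both calls held in each alternative run, with a log2 fold change from 3.53 to 4.84 for Calb1 and from 2.54 to 3.05 for Mab21l1.

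Among Hox partner genes Meis2 rose. Meis2 (chr2:115863064-116065839), a TALE homeodomain protein that binds DNA together with Hox and Pbx proteins, was lowest in members of VGAT E16 replicate 3, at 1645 CPM, and highest in those of VGAT E16 replicate 4, at 3425 CPM, with a median of 2697 CPM over 6 plates. The other wells had between 313 and 746 CPM, so the groups did not overlap on any plate (log2 fold change 2.34, SE 0.17, adjusted p = 2.24e-05). It was found in 95 members and, after thinning, in 92.9% of members and 33.7% of other wells. With the rule that asks for at least 2 of the 3 genes the call was lost (log2 fold change 1.91, adjusted p = 0.402). The noncoding gene G630016G05Rik, which starts 1385 bases from Meis2 on the opposite strand, was at 30.9 to 129 CPM in members and 4.94 to 13.7 CPM in other wells (log2 fold change 3.04, SE 0.25, adjusted p = 5.50e-05). In the list of 19 Hox partners and rhombomere factors, 13 were tested, 1 rose (Meis2) and 1 fell (Irx5), against 0.325% higher and 0.61% lower over all genes, and the median log2 fold change was 0.19. Meis1, the relative of Meis2, was at 156 CPM in members and 21.9 CPM in other wells and did not pass (log2 fold change 2.58, adjusted p = 0.0950). Pbx3 was at 1027 against 650 CPM and did not pass the threshold.

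Calb2 and Mab21l2, relatives of both markers, rose as well. Calb2 (calretinin) was at 94.8 CPM in members of VGAT E16 replicate 3 and at 204 to 502 CPM in those of the other 5 plates, against 26.5 to 96.6 CPM in the other wells (log2 fold change 2.35, SE 0.23, adjusted p = 2.88e-04), and it was higher on all 6 plates. On VGAT P0 replicate 2, outside the fit, it was at 24.3 CPM (1 count) in members and 106 CPM in other wells. Calbindin and calretinin were found in the same well in 33 members, calbindin alone in 13, calretinin alone in 17 and neither in 35. Mab21l2 was at 357, 112, 164 and 0 CPM in members of VGAT E16 replicates 1 to 4 and at 36.4 and 140 CPM in those of VGAT P0 replicates 1 and 3, against at most 35.5 CPM in other wells (log2 fold change 3.30, SE 0.36, adjusted p = 6.33e-04). It overlaps Lrba on the other strand. Of the 15 calcium-binding protein genes, 11 were tested, 2 rose (Calb1 and Calb2) and 1 fell (Necab2, log2 fold change -1.21, adjusted p = 0.0443), against 0.325% higher and 0.61% lower over all genes. Of the 3 Mab21 genes in the table, 2 were tested and both rose. Necab2 lost its call without any 1 of 5 plates: VGAT E16 replicates 1, 2 and 3 and VGAT P0 replicates 1 and 3, and also with no plate block and with at least 2 of the 3 genes.

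The other genes among the 15 with the largest rise, chosen for a higher level in members on each plate of the fit, had varied roles. For Hrk, Adamts5 and Stk33 the level on VGAT E16 replicate 4, 12.3 CPM, is 2 counts and not resolved there. Nwd2 (chr5:63649102-63810546) was at 161 to 429 CPM in members and 39.9 to 88.1 CPM in other wells, which did not overlap (log2 fold change 2.00, SE 0.15, adjusted p = 2.78e-05). Prkg1, a kinase that responds to cyclic GMP, was at 306 to 1655 CPM against 272 to 471 CPM (log2 fold change 1.45, adjusted p = 0.00742), with the smallest gap on VGAT E16 replicate 4, at 306 against 281 CPM. Hs6st2, which adds sulfate to heparan chains, was at 131 to 287 CPM against 44.8 to 125 CPM (log2 fold change 1.39, adjusted p = 0.00309). The glypican gene Gpc3 had a log2 fold change of 2.15 (adjusted p = 0.0222), the cell adhesion gene Cntn2 one of 1.00 (adjusted p = 0.00964), and Hrk, a gene of the BCL2 family that promotes cell death, one of 1.78 (adjusted p = 0.0113). Stk33 (1.78), Nuak2 (1.72), Adamts5 (1.72), Neurl1b (1.03), Msra (0.99) and Rph3a (0.92) completed the 15 largest. Under the rule that asks for at least 2 of the 3 genes, Stk33, Nuak2, Cntn2, Neurl1b, Rph3a and, as said, Meis2 missed the threshold. Under the rule on thinned wells Nuak2, Adamts5, Cntn2 and Neurl1b missed it. Of the 15, Gpc3, Hrk, Adamts5, Cntn2, Neurl1b, Msra and Rph3a each missed the threshold when at least 1 plate was left out, all of them without VGAT E16 replicate 1 except Cntn2. Without the 3 deep wells Gpc3, Adamts5 and Msra missed it, with at least 8 summed counts Cntn2 and Rph3a, and Neurl1b with exonic counts and in further settings. Without VGAT E16 replicate 2 the threshold was missed by Cntn2, Hrk, Adamts5, Neurl1b, Msra and Rph3a, without VGAT E16 replicate 3 by Adamts5, and without VGAT E16 replicate 4 by Rph3a. Without VGAT P0 replicate 1 it was missed by Gpc3, Adamts5, Neurl1b and Msra, and without VGAT P0 replicate 3 by Gpc3, Hrk, Neurl1b and Msra. Of the named genes that rose, G630016G05Rik, Gpc3, Nwd2, Stk33, Prkg1 and Msra overlap a gene on the other strand, as do Six3, Zeb2, Dlx1, Irs4, Pax5 and Syt1 among those that fell, and such reads may not have been told apart.

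**Figure D3:**
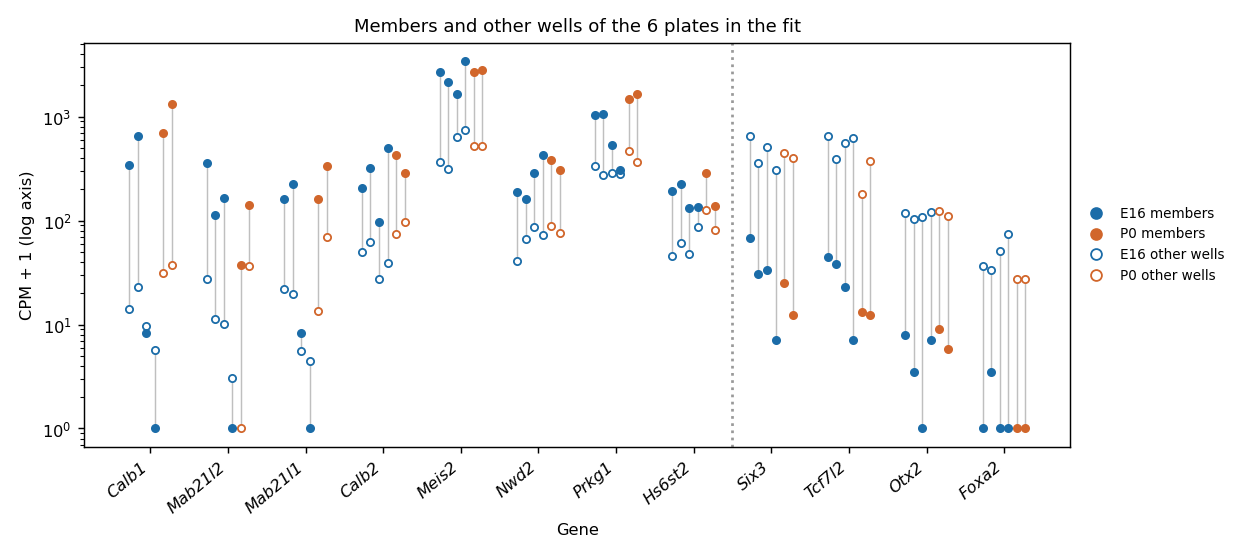
CPM + 1 (log axis) of 12 genes in members (filled) and other wells (open) of the 6 plates in the fit, blue for E16 and orange for P0, with a line joining the 2 values of a plate. Left of the dotted line are genes higher in members, where Calb1, Mab21l1 and Mab21l2 sit near the other wells on VGAT E16 replicates 3 or 4, and right of it genes lower in members on all 6 plates.

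Otx2, Six3 and Tcf7l2 had the lowest adjusted p among the named genes that fell. Otx2, the homeodomain factor of forebrain and midbrain (chr14:48657677-48673819, with Otx2os1 on the other strand), was at 0 to 8.09 CPM in members and at 102 to 123 CPM in other wells of the 6 plates (log2 fold change -4.56, SE 0.26, adjusted p = 2.56e-06). VGAT P0 replicate 2, not in the fit, went the other way, with 146 CPM in members and 63.8 CPM in other wells, from 1 of its 4 members. Six3, which marks a set of inhibitory neurons of the substantia nigra pars reticulata, was at 6.13 to 67.3 CPM against 303 to 657 CPM (log2 fold change -4.00, SE 0.22, adjusted p = 2.56e-06). Six3os1, which overlaps Six3 on the other strand, fell with it (log2 fold change -4.59). Tcf7l2, a Wnt pathway factor of the thalamus and rostral midbrain, was at 6.13 to 44.1 CPM against 178 to 650 CPM (log2 fold change -4.28, SE 0.24, adjusted p = 2.56e-06). None of these 3 factors overlapped between the groups on the plates of the fit, and each kept its call in every alternative run.

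Foxa2, a factor of the floor plate and of dopamine neurons, had 1 count in the members of the 6 plates and 1012 in their other wells. Its pooled level in other wells was 96.9 times that in members (95% counting interval 17.3 to 3830), and the test gave an adjusted p of 8.55e-05 with edgeR. The noncoding gene 9030622O22Rik, 2673 bases from Foxa2, likewise had 1 count against 1997 (adjusted p = 5.87e-06). Irs4, an insulin receptor substrate, was at 1.72 CPM ± 2.14 in members and 28.7 CPM ± 9.57 in other wells (SD, n = 6 plates), and Zeb2, a repressor active in migrating interneurons, was at 7.97 CPM ± 11.5 (SD) against 124 CPM ± 40.4. Dlx1, which specifies forebrain inhibitory neurons, was at 3.26 CPM ± 6.00 against 45.0 CPM ± 50.1, and Irx5, a patterning factor of the Iroquois family, at 2.53 CPM ± 3.01 against 33.4 CPM ± 7.64. Irs4, Zeb2 and Irx5 were lower in members on 6 of 6 plates, a direction that the choice of the largest falls required. Dlx1 was lower on 5, and on VGAT P0 replicate 3, with 0 counts in members against 3.20 CPM, a difference was not detectable at this depth. For Irs4, Zeb2, Dlx1 and Irx5 the test gave adjusted p of 0.00311, 7.80e-04, 4.37e-04 and 0.00119 by edgeR, and Dlx1 missed the threshold with no plate block (adjusted p = 0.235).

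Of 31 factors that select or subdivide inhibitory neurons of the midbrain, 23 were tested, 0 rose and 5 fell (among them Six3, Otx2, Tcf7l2 and Pax5), against 0.325% higher and 0.61% lower over all genes, with a median log2 fold change of -0.53 against 0.01 over all genes. Pax5 was at 24.9 CPM ± 23.8 in members and 124 CPM ± 113 in other wells (log2 fold change -2.30, adjusted p = 0.00644) and was lower on 5 of 6 plates. The selector genes themselves were not among those that passed. Gata3 was at 587 CPM in members and 571 CPM in other wells, Tal1 at 163 and 155 CPM, Zfpm2 at 1134 and 704 CPM and Gata2 at 245 and 78.6 CPM (adjusted p = 0.908, 0.935, 0.771 and 0.134, edgeR). Among 28 factors of hindbrain and spinal inhibitory neurons in the table, 14 were tested, 1 rose (Mab21l2) and 1 fell (En2, a factor of the border of midbrain and hindbrain, log2 fold change -2.17, adjusted p = 0.00799), with a median of -0.15. En2 missed the threshold without VGAT E16 replicate 2, with no plate block and with at least 8 summed counts, and Pax5 with no plate block. En1, its relative, was found in 57 members and was at 67.5 against 48.9 CPM, which did not pass. Lbx1 and Pax2, factors of dorsal inhibitory neurons, were found in 10 and 9 members (10.2% and 9.18%) and in 1.17% and 1.98% of other wells, and were too low to be tested. Of the 9 members with Pax2, 6 were the wells with Hox genes of group 6 or higher on VGAT E16 replicate 3, and the other 3 were on VGAT E16 replicate 1.

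Of 21 genes of inhibitory transmission 17 were tested and 0 passed, with a median log2 fold change of -0.09, which at a background of 0.935% does not show that they were alike. Gad1 was at 829 against 1127 CPM, with the lower level in members on 5 of 6 plates (log2 fold change -0.49, adjusted p = 0.208). Gad2, at 470 against 585 CPM, and the receptor anchor gene Gphn, at 247 against 295 CPM, were at the lower level in members on 6 of 6 plates (adjusted p = 0.279 and 0.313, edgeR). Slc32a1 was at 242 against 224 CPM. Glycine receptor subunits were present in both: Glra2 at 151 and 151 CPM and Glrb at 81.6 and 69.8 CPM. Of 14 GABA-A receptor subunits 11 were tested and 0 passed (median -0.27), and of 38 ion channel genes 34 were tested and 0 passed (median -0.01). The potassium channel gene Kcnd2 was at 1711 against 906 CPM and the calcium channel gene Cacna1g at 92.8 against 63.8 CPM, neither past the threshold. Among neuropeptides 7 of 25 were tested, 0 rose and 1 fell: Tac1, the substance P precursor, at 5.08 CPM ± 4.43 against 57.2 CPM ± 43.1 (log2 fold change -3.22, adjusted p = 5.50e-04), a call lost with no plate block. Penk, the enkephalin precursor, was at 178 CPM ± 147 against 60.8 CPM ± 40.5 and Npy at 182 CPM ± 301 against 52.6 CPM ± 38.9 (SD, n = 6 plates), with 210 of the 280 Npy counts of members on VGAT E16 replicate 3, and neither passed (adjusted p = 0.0788 and 0.647). Among 17 netrin and Slit receptors and ligands, 14 were tested and 0 passed (median -0.11), with the netrin receptor Dcc at 1117 CPM in members and 1706 CPM in other wells. Lamp1 and Lamp2, the relatives of Lamp5 that were tested, did not pass.

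Markers of other cell types were compared as sums over each list. Summed over 10 microglia and blood genes, members had 0 to 9.93 CPM per plate and other wells 4.91 to 43.4 CPM, with 5 of the 10 at 0 in members, among them Hba-a1 and P2ry12. For 8 endothelial and mural genes the ranges were 0 to 16.2 and 1.99 to 5.47 CPM, with Cldn5 at 0 in members. The oligodendrocyte genes Sox10 and Pdgfra and the astrocyte genes Aqp4 and Gfap were at 0 in members, but the myelin gene Mog was found in 6.12% of members and 1.40% of other wells, with 6 counts in members, and Mag in 11.2% and 6.09%, with 15 counts, and their part in the results was not tested. Summed over 10 astrocyte and radial glia genes members had 147 to 368 CPM and other wells 249 to 378 CPM, and over 9 oligodendrocyte genes 30.9 to 98.04 and 55.1 to 79.8 CPM, with 0 of the 5 tested genes of both lists past the threshold. For 10 progenitor and cell cycle genes the ranges were 6.13 to 226 and 72.5 to 133 CPM, with 0 of 2 tested past it. Over all genes 0.935% passed, so counts of 0 among so few genes do not show that members and other wells were alike in them. Among 12 dopamine neuron genes 4 were tested, 0 rose and 1 fell (Foxa2), against 0.325% higher and 0.61% lower over all genes. Th was found in 2 members and Pitx3 in 1. Slc6a3, the dopamine transporter gene, was found in 10 members (10.2%, 12 counts in all) and in 1.10% of other wells, and was too low to be tested. Of 10 general neuronal genes 0 rose and 1 fell, against 0.325% higher and 0.61% lower over all genes. The gene that fell was the vesicle gene Syt1, at 867 CPM ± 236 against 1342 CPM ± 94.1 (log2 fold change -0.67, adjusted p = 0.0271), a call that was lost without VGAT E16 replicates 1 or 2 or VGAT P0 replicates 1 or 3, and with exonic counts, plates of at least 2 members, no plate block or at least 2 of the 3 genes.

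The gene rules of 7 other inhibitory classes, each with at least 4 summed counts of 3 genes, were also counted in members and other wells, without a test. At least 1 of them was met by 82 of 98 members and by 1267 of 1362 other wells. The rule of Six3, Foxp2 and Uncx was met by 20 members (20.4%) and 46.2% of other wells, and that of Pax5, Irs4 and Sox21 by 9 (9.18%) and 18.3%. The rule of Dlx1, Dlx2 and Dlx5 was met by 0 members and 8.00% of other wells. The rule of Nkx2-2, Otx1 and Chrm2 was met by 32 members (32.7%) and 41.0%, that of Tcf7l2, Otx2 and Lmo1 by 37 (37.8%) and 32.8%, that of Onecut2, Sst and Pnoc by 33 (33.7%) and 39.9%, and that of Pax7, Otp and Pax3 by 3 (3.06%) and 4.33%. Lmo1 was found in 55.1% of members, against 30.4% of other wells.

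Members with and without Slc6a5 differed in other genes. The 55 members with Slc6a5 and the 43 without it had median depths of 20343 and 21554 counts. The split and its genes were chosen after the values were seen, so the values are given without a test, as means of plate CPM over the 5 plates with at least 3 members of each kind. Members with Slc6a5 had more of 2 nuclear factor I genes on each of the 5 plates, Nfib at 669 CPM ± 162 against 200 CPM ± 119 and Nfix at 226 CPM ± 74.7 against 51.9 CPM ± 44.7 (SD, n = 5). Nxph1, a neurexin ligand, was at 1520 CPM ± 381 against 803 CPM ± 592, and Nfia at 319 CPM ± 85.7 against 120 CPM ± 86.9, both higher on 4 of 5 plates. Members without Slc6a5 had more Gata3 on each plate, at 785 CPM ± 532 against 195 CPM ± 113, more Nkx2-2, at 211 CPM ± 164 against 7.23 CPM ± 6.74, and more Gad1 and Gad2, at 1115 CPM ± 418 against 659 CPM ± 189 and at 631 CPM ± 203 against 309 CPM ± 65.4. The zinc finger genes Zfhx3 and Zfhx4 were at 1067 and 621 CPM without Slc6a5 and at 204 and 82.1 CPM with it, higher without it on 4 of 5 plates. Mab21l2 and Meis1 were found in 60.0% and 67.3% of members with Slc6a5 and in 32.6% and 41.9% of those without, while Meis2 was found in 94.5% and 100%, Slc32a1 in 90.9% and 95.3%, and Calb1 in 50.9% and 41.9%. Hoxb2 was found in 38.2% of members with Slc6a5 and in 18.6% of those without. The rule used both genes, so these 2 shares are not independent of the choice of members.

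**Figure D4:**
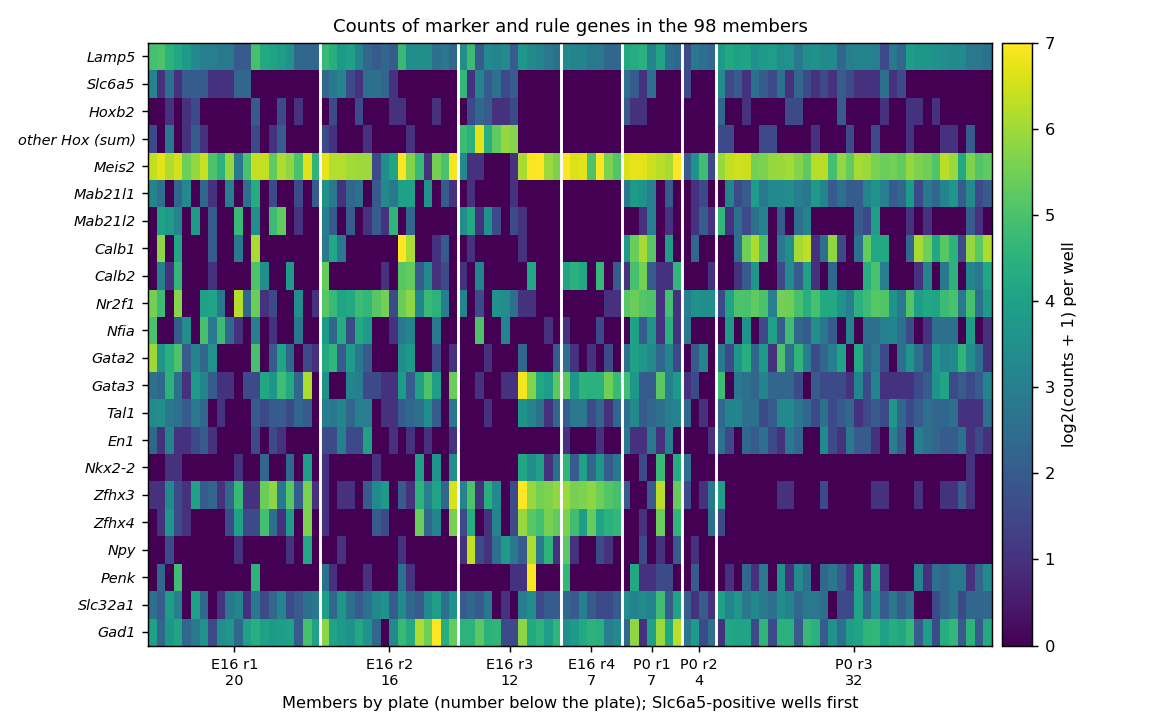
Counts per well, as log2(counts + 1), of 22 rows of genes in the 98 members, in columns grouped by VGAT plate with Slc6a5 wells first. On VGAT E16 replicate 3 the 7 wells with Slc6a5 hold the Hox counts of that plate and few Meis2 counts.

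The kinds of members differed between plates. All 7 members of VGAT E16 replicate 4 lacked Slc6a5, Hoxb2, Calb1, Mab21l1 and Mab21l2, and all 7 had Gata3, Tal1, Nkx2-2, Zfhx3, Zfhx4 and Meis2. Members of VGAT P0 replicate 3 also had Gata3 (30 of 32), Tal1 (32) and Meis2 (32), but 31 had Mab21l1, 26 Calb1, 27 En1 and 25 Penk, and 1 had Nkx2-2, 1 Zfhx4 and 0 Npy. By the second plate label some of these genes differed and others did little. On the 4 plates whose second label reads E16, 43 of 75 members (57.3%) had Calb1, 61 (81.3%) Mab21l1, 53 (70.7%) Meis1, 54 (72.0%) En1 and 9 (12.0%) Npy. On the 3 plates whose second label reads P0, 3 of 23 (13.0%) had Calb1, 4 (17.4%) Mab21l1, 2 (8.70%) Meis1, 3 (13.0%) En1 and 17 (73.9%) Npy. VGAT P0 replicate 3 supplied 32 of the 75 members and 26 of the 43 with Calb1. Hoxb2 was found in 30.7% and 26.1% of the members under the E16 and P0 second labels, Mab21l2 in 49.3% and 43.5%, Gata3 in 90.7% and 73.9%, Tal1 in 90.7% and 65.2% and Gad1 in 98.7% and 100%. No test was made, since these genes were chosen after their values were seen.

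Between P0 and E16 no gene passed within the members. Counts of members on 4 VGAT E16 and 2 VGAT P0 plates were tested for 7545 genes, and 0 passed (0%) with edgeR, with 626 at an unadjusted p under 0.05 and a lowest adjusted p of 0.145. DESeq2 called 37, of which 7 were higher and 30 lower at P0. Without VGAT E16 replicate 4 edgeR called 7, all lower at P0. Both P0 plates in this fit carry E16 as their second label, while their Sox11 levels lie with the other P0 plate.

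A stage by class test asked whether the difference between P0 and E16 in members departed from that in the other wells of the same plates. Of 11177 genes, 5 passed (0.0447%), all with an adjusted p of 0.041 by edgeR and all lower at P0 in members relative to other wells. Robo1, the Slit receptor that guides axons, was at 1162, 834, 1634 and 2016 CPM in members of VGAT E16 replicates 1 to 4 and at 372 and 117 CPM in those of VGAT P0 replicates 1 and 3, with other wells at 1186, 876, 1799 and 1775 CPM at E16 and at 872 and 519 CPM at P0 (interaction log2 fold change -1.67, SE 0.24). Its ligand Slit2 was at 150 to 246 CPM in members at E16 and at 60.7 and 61.7 CPM at P0 (-1.93, SE 0.27), and the nociceptin precursor gene Pnoc at 104 to 197 CPM and at 24.3 and 52.0 CPM (-2.21, SE 0.32). Nhlh2, a factor of young neurons, had 0 and 1 counts in the members at P0 and also 0 in those of VGAT E16 replicate 4, and its value (-7.50, SE 1.09) depends on how such counts are smoothed. The ratio of members to other wells did not overlap between the stages for Robo1, Slit2 and Pnoc on the plates of the fit, and for Nhlh2 it did so at VGAT E16 replicate 4 unless 1 CPM was added to each value. Genes were named here by such a lack of overlap, so it adds no support to the test. VGAT P0 replicate 2, outside the fit, had Pnoc at 218 CPM in members and 191 CPM in other wells. Without VGAT E16 replicate 3 or without VGAT P0 replicate 3 no gene passed (647 and 648 at an unadjusted p under 0.05). Without VGAT E16 replicate 1 there were 6 calls, of which 1, Slit2, was among the 5. Without VGAT E16 replicate 2 or VGAT E16 replicate 4 the counts were 16 and 11 and held the 5 genes. Without VGAT P0 replicate 1 the count was 19, but Slit2 and Pnoc missed the threshold (adjusted p = 0.0631 and 0.0563, edgeR). The kinds of members differed between these plates: Slc6a5 was in 0 of 7 members of VGAT E16 replicate 4 and 22 of 32 of VGAT P0 replicate 3, and 7 of 12 on VGAT E16 replicate 3 had Hox genes of group 6 or higher. Robo1 was at 1139 CPM ± 853 in members without Slc6a5 and 538 CPM ± 409 in those with it (SD, n = 5 plates), and the part of this mix in the 5 calls was not tested. Leaving out either P0 plate leaves 1 at P0, which is then assumed to vary like the E16 plates.

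**Figure D5:**
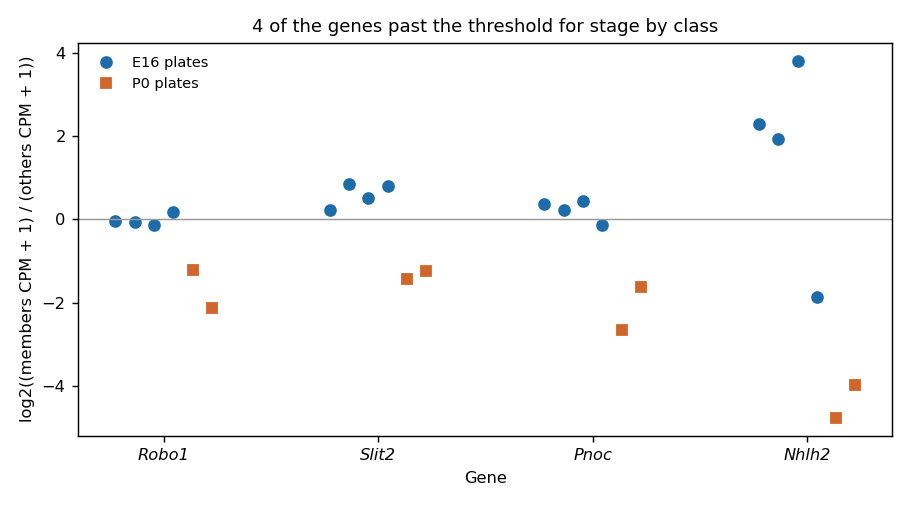
Ratio of members to other wells as log2((members CPM + 1) / (others CPM + 1)), 1 point per plate of the fit (circles E16, squares P0), for 4 of the 5 genes past the threshold of the stage by class test. With 1 CPM added, the P0 points lie below the E16 points for each gene shown, a gap by which the genes were named.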

How the data were processed

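Sorted single cells of 9 plates were profiled with CEL-seq2. Per the study's methods, the authors discarded reads that lacked a well barcode, trimmed the rest and aligned them with STAR to mouse build GRCm38 (mm10 in the submitters' processing notes) and counted molecules on exons, introns and both. The deposited values are expected counts: distinct molecular barcodes corrected for molecules that share a barcode, not scaled to depth. They were rounded to whole numbers. The counts of exons and introns together were the main table, the exonic counts an alternative.

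Kept wells had 2000 genes or more, no more than 50000 counts and under 15% mitochondrial counts, after which ERCC and mitochondrial entries were dropped. The members, gene lists and tests were chosen with earlier results of these data known. Total counts of the kept wells were 1434306 to 5403472 per VGAT plate. On a plate in the fit 3 counts are 4.91 to 17.4 CPM in members and 0.585 to 2.54 CPM in other wells, and lower levels are not resolved there.

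Counts were summed per plate and class and tested in R 4.3.3 with edgeR 4.0.16 (low genes removed by filterByExpr, scaling by TMM, the quasi-likelihood test, p adjusted over all genes by Benjamini-Hochberg, threshold 0.05), with DESeq2 1.42.0 as an alternative. Plates needed at least 5 members. Members against other wells had the plate as a block. Stage was fitted over members, and its interaction with class with the plate as a block. Shares were compared with a two-sided exact permutation test. Thinning drew 4000 counts per well and left out 52 shallower VGAT wells. Named genes are the rule genes, Calb1 and Mab21l1, up to 6 called genes per list (defining genes where none was called), the 15 highest and 10 lowest called genes with 1 direction on every plate, and called stage genes whose plates did not overlap. Genes or sets chosen after their values were seen are said to be so.

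On simulated data made from these sums, with 100 genes changed 4-fold and 100 changed 2-fold, 92% and 76% were called for members against other wells, 94% and 26% for stage, and 65% and 11% for the interaction, with 5, 3 and 5 other genes called. The changed genes were drawn from those with higher counts, and every gene had 1 common dispersion. The mix of member kinds between plates was not simulated, so these rates may be too high for genes that vary more between plates. Alternatives were DESeq2, RLE factors, no filter, exonic counts, other member rules, other sets of plates and wells, a replicate block and each plate left out. Clusters of the authors were not used here. Sums and shares were computed in Python 3.11.15 (pandas 2.3.3, scipy 1.17.1, numpy 2.4.6) and plots drawn with matplotlib 3.10.9. Gene positions are from GENCODE's annotation of GRCm38. Some genes that the rule names are not reported here.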

Additional observations from a re-analysis of the deposited data

Results flagged for a closer look

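Robo1, Slit2, Pnoc and Nhlh2 were flagged because the difference between P0 and E16 in members departed from that in other wells by a test of that difference, with interaction log2 fold changes of -1.67, -1.93, -2.21 and -7.50 (edgeR). The kinds of members differed between these plates, and their part in these values was not tested. Among the other results, 6 wells of the VGAT plates that failed the quality limits also met the member rule, 1 on VGAT E16 replicate 3, 2 on VGAT P0 replicate 1 and 3 on VGAT P0 replicate 3, and they are in no comparison.

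In 48 values looked at over the 4 VGAT E16 plates, 3 had a plate far from the others in members: 9030622O22Rik at 2.32 CPM on VGAT E16 replicate 1, Foxa2 at 2.48 CPM on VGAT E16 replicate 2 and Irs4 at 4.64 CPM on VGAT E16 replicate 1, each with 0 on the other 3 plates. They are 1, 1 and 2 counts, below the level of 3 counts on their plates (6.94 and 7.46 CPM). With 0 on the other plates any count stands apart, so the usual rate of about 1 in 20 by chance does not hold for them.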

How the results depend on the processing

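Among 34 named genes tested against other wells, 17 kept their call under each alternative in which they were tested and none turned its direction in any. The count of genes past the threshold, 92 in the report, was 171 with DESeq2, 584 with no filter on low counts, 148 with plates of at least 2 members, 172 with at least 8 summed counts, 145 with at least 2 of the 3 genes and 183 with the rule on thinned wells, and 53 to 147 with 1 plate left out. Of the 92 genes, 92 were called by DESeq2, 69 with exonic counts, 77 with no plate block, 56 with at least 2 of the 3 genes and 47 without VGAT E16 replicate 2. The other alternatives gave between 89 and 122. Within members the stage count, 0 in the report, was 37 with DESeq2, 277 with no filter on low counts, 0 to 7 with 1 plate left out, and 41 on the 3 plates whose labels give 1 stage (chosen after seeing the data), where the lone P0 plate is assumed to vary like the E16 plates. The interaction count, 5 in the report, was 22 with DESeq2, 230 with no filter and 0 to 19 with 1 plate left out. The difference in shares between P0 and E16 kept its direction in each alternative, from 0.455 to 11.4 percentage points, with exact p between 0.133 and 0.743, but by the stage in the second plate label it turns, with medians of 13.2% on E16 and 2.30% on P0 plates.

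No pairing of plates by replicate number was seen: deviations of members of the same number from their stage means had correlations across genes of -0.06, -0.02 and -0.07. Plates of different numbers had correlations from -0.108 to 0.113. With 3 such pairs and few members on some plates, this check cannot exclude a pairing. With the replicate block 4 genes passed for stage, and the difference in shares was 4.98 percentage points (exact permutation p = 0.5, 3 pairs).

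Depth limits low genes: the 4 members of VGAT P0 replicate 2 held 35277 counts, so that 3 counts are 85.0 CPM there. No Hox gene was tested. The cause of the differences between alternatives was not tested.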

Other observations

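The 5 members of VGAT E16 replicate 3 without Hox genes of group 6 or higher all lacked Slc6a5. Over all plates the 43 members without Slc6a5 had Bcl11b at 339 CPM in 22 wells, whereas the 48 with Slc6a5 and without these Hox genes had it at 30.5 CPM in 5 wells (pooled counts, no test). Reln, the gene of the secreted protein reelin, was at 735 CPM in these 48, at 409 CPM in the members without Slc6a5 and at 7.25 CPM in the 7 with Hox genes of group 6 or higher. Ebf1, a factor of the COE family, was at 667 CPM in those 7, in 4 wells, and at 39.99 CPM in the 48 and 16.1 CPM in the 43.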
